A study of Mus musculus with 6 samples.

Results

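The 10 genes described here encode the calcium pumps, the luminal calcium buffers, the release channel with its junctional partners, the pump inhibitor and the sodium-calcium exchanger of the heart muscle cell. They are Atp2a1, Atp2a2, Atp2a3, Casq1, Casq2, Pln, Ryr2, Slc8a1, Trdn and Jph2, and were taken by gene name from a table of 30914 genes, in which each of the 10 had 1 row. RNA labelled as heart was sequenced from 6 wild-type male C57BL/6J mice, 3 given Ang II alone and 3 given Ang II + Tec. The labels give an age of 8 weeks without the day of sampling, and the 4 weeks of infusion came on top of it if that was the age at the start. Both groups were infused with angiotensin II at 1 μg/kg/min through osmotic pumps for 4 weeks, and the Ang II + Tec group also received the flavonoid tectochrysin (Tec) at 5 mg/kg during the final 2 weeks. The 6 libraries include no heart without Ang II, so each difference below is one between hearts with and without Tec, all on an Ang II background. Any other difference between the groups of mice cannot be told apart from Tec. The genes were selected on their FPKM in these same 6 libraries, with the results of the comparison known. Their values are therefore a description, with the fitted difference and its standard error but without p-values.

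In the cardiac cycle, calcium that enters through the L-type channel opens the ryanodine receptor of the sarcoplasmic reticulum, and the released calcium drives contraction. Relaxation follows as SERCA pumps return calcium to the reticulum, where calsequestrin buffers it, and as the sodium-calcium exchanger carries the rest out of the cell. Skeletal and cardiac muscle use different genes for the pump and for calsequestrin. Fast skeletal fibres use Atp2a1 (SERCA1) and Casq1, while the heart uses Atp2a2 (SERCA2) and Casq2.

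Expression is given in FPKM, the number of fragments per kilobase of transcript per unit of sequencing depth, which allows levels to be compared between genes. The heart label was borne out by the 10 cardiomyocyte markers, which were all present, with a summed FPKM of 10834 to 13242 in the Ang II libraries and 11028 to 12634 in the Ang II + Tec libraries. The libraries differed within groups. Ang II replicate 3 had a summed FPKM of 172 over 8 fibroblast markers, against 775 and 1029 in Ang II replicates 1 and 2 and 141 to 233 in the Ang II + Tec group. The atrial light chain gene Myl7 was at 419 and 332 FPKM in Ang II replicates 1 and 2 and at 1040 in Ang II + Tec replicate 2, but at 0 to 1.58 in the other 3 libraries, so this transcript was all but absent from those 3. In these bulk samples, fewer cells of a type and less RNA per cell cannot be told apart. Tests covered the 13089 genes that reached 0.5 FPKM in 3 or more libraries. Their median log2 fold change was -0.17 as deposited and 0.0020 after median-of-ratios rescaling, which sets the typical gene equal across libraries. A difference near -0.17 is therefore that of the typical gene, and 80.0% of the tested genes had a difference below 0 as deposited, against 49.6% after rescaling.

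The skeletal pump gene showed the widest separation of the groups. Atp2a1 (chr7:126445858-126463108, minus strand, GRCm38) was at 0.1, 0.07 and 0.07 FPKM with Ang II alone and at 6.3, 7.51 and 7.46 in the Ang II + Tec hearts. It was thus close to silent in each Ang II heart, including replicate 3, and present at a moderate level in each treated heart. The means were 0.08 ± 0.0173 and 7.09 ± 0.685 (SD, n = 3), an 88.6-fold ratio, and the fitted log2 fold change was 2.90 (standard error 0.11) on the scale of log2(FPKM + 1), which understates the change of genes with low FPKM. Without Ang II replicate 3 the difference was 2.90 as well, and with median-of-ratios rescaling it was 3.01. Atp2a1 moved from rank 13084 to rank 3618 of the 13089 tested genes by mean FPKM, and it passed the filter on low FPKM through the treated libraries alone. From the spacing of the lowest values in the table, the FPKM of Atp2a1 amounted to an estimated 8 to 11 fragments in an Ang II library and 666 to 1077 in an Ang II + Tec library. Counting error at the low end is therefore large, but it is small against the gap.

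The adult cardiac pump gene remained the dominant SERCA gene in each library. Atp2a2 (chr5:122453513-122502174, minus strand) was at 979, 755 and 1311 FPKM with Ang II alone and at 1233, 1330 and 1237 in the Ang II + Tec hearts. Ang II replicates 1 and 2 were the low libraries, and Ang II replicate 3 fell inside the treated range, so the groups overlapped. The fitted difference was 0.35 (standard error 0.20). It was 0.56 without Ang II replicate 3, 0.59 with median-of-ratios rescaling and 0.033 with quantile normalization, so its size depended on both the library and the scaling.

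Atp2a3 encodes SERCA3, the pump of blood cells, endothelium and some epithelia. Its FPKM was 2.11, 2.26 and 2.02 in the Ang II hearts and 1.73, 2.58 and 1.82 in the treated hearts. The groups overlapped, with a difference of -0.051 (standard error 0.14) that became 0.10 with median-of-ratios rescaling. In Ang II hearts SERCA3 transcripts thus outnumbered those of SERCA1, and in treated hearts the order was the opposite, with no overlap between the 2 genes in either group.

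A share within a library does not depend on the scaling between libraries. Of the summed FPKM of the 3 pump genes, Atp2a1 held 0.0102%, 0.00924% and 0.00533% in the Ang II hearts and 0.508%, 0.561% and 0.599% in the Ang II + Tec hearts. The means were 0.00825% ± 0.00258 and 0.556% ± 0.0457 (SD, n = 3). Even in treated hearts, then, SERCA transcripts were nearly all those of Atp2a2, which held 99.2% to 99.4% there and 99.7% to 99.8% in the Ang II hearts. The ratio of Atp2a2 to Atp2a1 was 9787, 10789 and 18733 with Ang II alone and 196, 177 and 166 with Ang II + Tec.

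**Figure D1:**
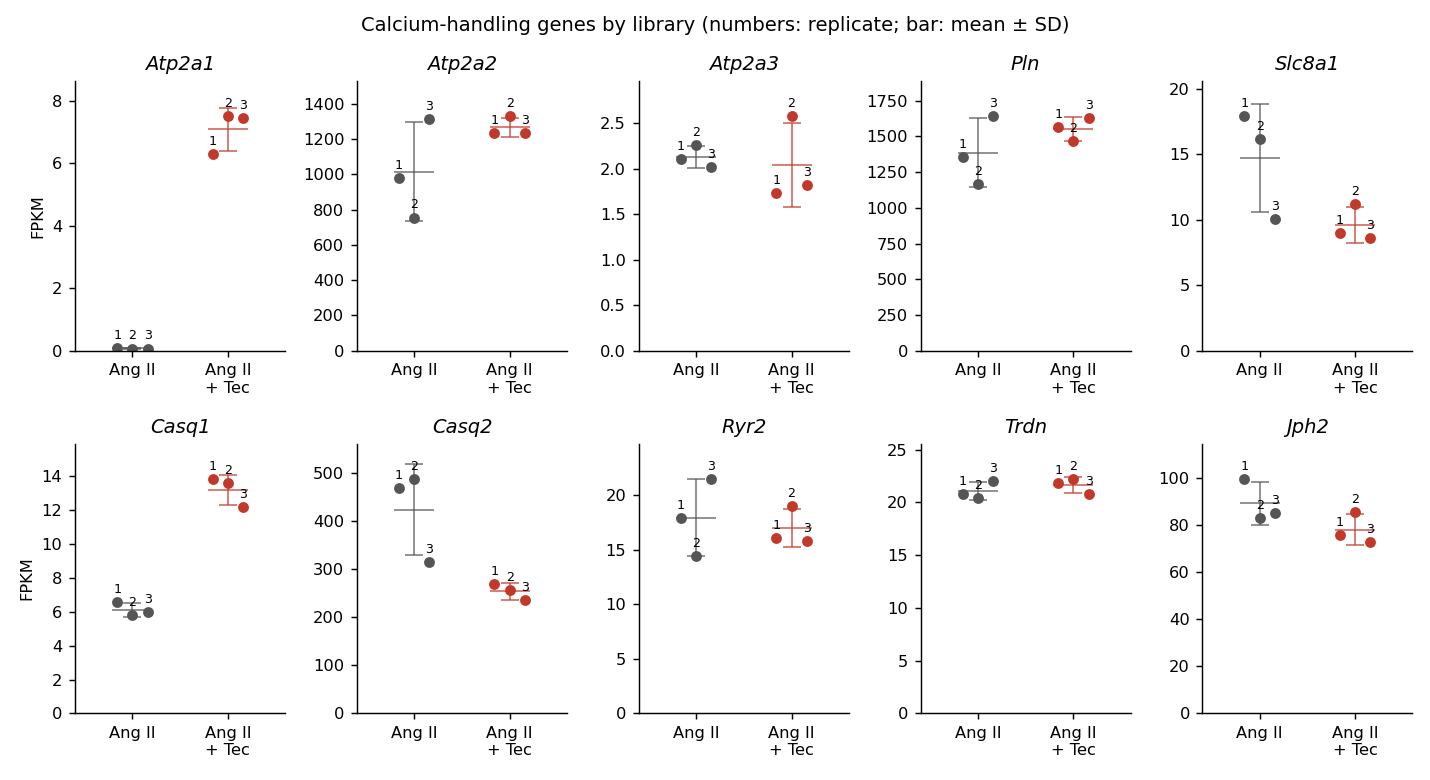
FPKM of the 10 calcium-handling genes in each library, with a linear axis from 0 for each gene, the replicate number over each point, and a bar for the mean and SD of 3 hearts. Atp2a1 and Casq1 were higher in all 3 Ang II + Tec hearts than in any Ang II heart, Casq2 was lower, and the other 7 genes overlapped between the groups.

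The skeletal calsequestrin gene separated the groups in the same direction as the skeletal pump. Casq1 (chr1:172209894-172219868, minus strand) was at 6.57, 5.79 and 5.97 FPKM with Ang II alone and at 13.84, 13.57 and 12.17 in the Ang II + Tec hearts. The values were tight within each group, and Ang II replicate 3 lay with the other Ang II hearts. The means were 6.11 ± 0.408 and 13.2 ± 0.896 (SD, n = 3), a 2.16-fold ratio. The fitted difference was 0.997 (standard error 0.11) and lay between 0.964 and 1.22 over 15 alternative settings. Unlike Atp2a1, Casq1 was expressed in the Ang II hearts already, at an estimated 330 to 383 fragments per library.

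The cardiac calsequestrin gene went the other way. Casq2 (chr3:102086415-102146514, plus strand), the main calcium buffer of the cardiac reticulum, was at 470, 489 and 316 FPKM with Ang II alone and at 270, 257 and 235 in the treated hearts. The groups did not overlap, but Ang II replicate 3 lay nearer to the treated hearts than to the other Ang II hearts. The means were 425 ± 94.7 and 254 ± 17.5 (SD, n = 3), and the fitted difference was -0.71 (standard error 0.18). It was -0.91 without Ang II replicate 3 and -0.48 with median-of-ratios rescaling.

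As a share of the summed FPKM of Casq1 and Casq2, the skeletal gene made up 1.38%, 1.17% and 1.85% in the Ang II hearts and 4.87%, 5.01% and 4.91% in the Ang II + Tec hearts. The means were 1.47% ± 0.350 and 4.93% ± 0.0701 (SD, n = 3), a 3.36-fold ratio. The share combined a higher Casq1 with a lower Casq2, and the treated hearts were nearly alike. Summed over both genes, calsequestrin FPKM was 476, 494 and 322 with Ang II alone and 284, 271 and 248 with Ang II + Tec, again without overlap. The summed SERCA FPKM, at 758 to 1313 and 1241 to 1340, did overlap.

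**Figure D2:**
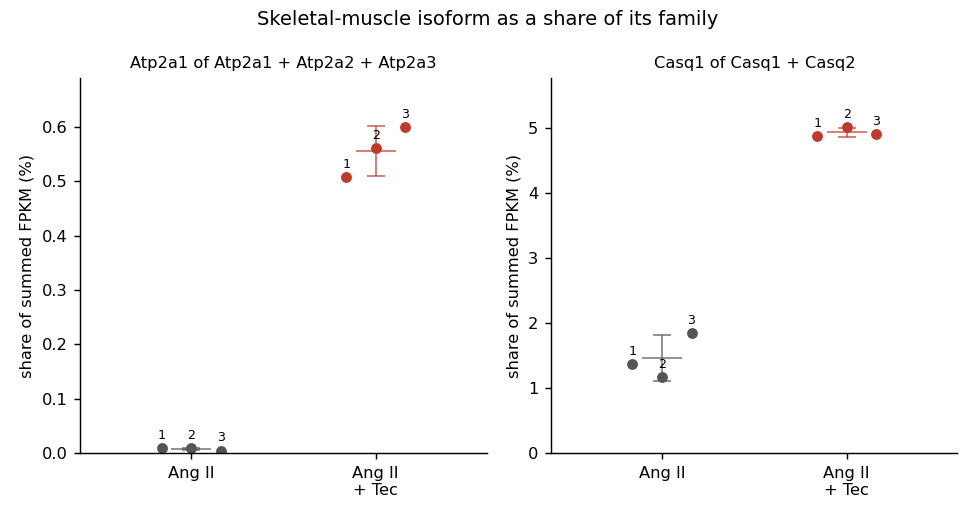
Percent of the summed FPKM held by the skeletal-muscle isoform in each library, Atp2a1 among the 3 SERCA genes on the left and Casq1 among the 2 calsequestrin genes on the right, with the mean and SD of 3 hearts. The treated hearts sat at 0.508% to 0.599% for Atp2a1 and at 4.87% to 5.01% for Casq1, above all Ang II hearts, and the cardiac isoform made up the rest almost entirely.

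Since Atp2a1 and Casq1 were both higher in the treated hearts and Casq2 lower, the promoters of these 3 genes are shown, as given by RefSeq on GRCm38.p6 from 250 bases before the transcription start to 50 after it. The table of promoters matched 8 of the 10 genes. Capitals mark each CANNTG, the E-box letters bound by myogenic bHLH factors, searched on both strands.
Atp2a1 (chr7:126463024-126463323, minus strand): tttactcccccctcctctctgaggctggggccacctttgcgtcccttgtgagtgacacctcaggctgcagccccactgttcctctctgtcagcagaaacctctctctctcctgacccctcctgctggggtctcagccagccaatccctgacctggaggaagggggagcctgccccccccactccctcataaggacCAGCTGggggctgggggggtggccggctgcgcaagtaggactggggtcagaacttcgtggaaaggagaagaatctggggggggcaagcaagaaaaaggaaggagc
Casq1 (chr1:172219846-172220145, minus strand): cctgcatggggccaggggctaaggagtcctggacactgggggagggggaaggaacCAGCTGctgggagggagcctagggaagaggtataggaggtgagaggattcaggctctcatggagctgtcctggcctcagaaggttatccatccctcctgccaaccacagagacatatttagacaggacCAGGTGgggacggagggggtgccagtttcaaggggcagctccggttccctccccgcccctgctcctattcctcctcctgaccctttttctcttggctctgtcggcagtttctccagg
Casq2 (chr3:102086165-102086464, plus strand): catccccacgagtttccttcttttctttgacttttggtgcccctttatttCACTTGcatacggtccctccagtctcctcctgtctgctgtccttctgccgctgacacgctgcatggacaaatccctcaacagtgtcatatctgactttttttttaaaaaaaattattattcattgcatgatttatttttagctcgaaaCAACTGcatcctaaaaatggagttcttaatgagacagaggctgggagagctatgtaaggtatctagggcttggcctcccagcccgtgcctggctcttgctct

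The Atp2a1 window held 1 CANNTG, beginning at position -55 from the start. That of Casq1 held 2, at -195 and -67, and that of Casq2 held 2, at -200 and -52. Of 32841 promoter windows of the same length, 72.3% held at least 1, so the letters are common. The Casq2 window also held a match to the MEF2 motif at -69, which 3.19% of the windows held and the other 2 shown did not. GGGCGG was found at -15 in the Casq1 window, and 35.7% of all windows held it. The letters CATTCC, held by 14.7% of all windows, were not found in these 3, nor was the CArG box, held by 1.63%, nor TATAAA, held by 13.6%. All motifs were searched on both strands. No motif found in the 3 windows overlapped another. A match describes letters only, and no binding was measured.

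Pln encodes phospholamban, the inhibitor of SERCA2, and was the most abundant of the 10 transcripts in both groups. Its FPKM was 1352, 1164 and 1641 in the Ang II hearts and 1564, 1466 and 1629 in the treated hearts. As for Atp2a2, Ang II replicates 1 and 2 were low and replicate 3 lay with, or here above, the treated hearts. The fitted difference was 0.18 (standard error 0.16). It was 0.41 with median-of-ratios rescaling and -0.069 with quantile normalization, so not even its sign held under each scaling. Per unit of its target, the ratio of Pln to Atp2a2 was 1.38, 1.54 and 1.25 with Ang II alone and 1.27, 1.10 and 1.32 with Ang II + Tec, with overlap. Its means were 1.39 ± 0.145 and 1.23 ± 0.113 (SD, n = 3).

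The release machinery was at similar levels in both groups. Ryr2, which encodes the cardiac ryanodine receptor, was at 17.9, 14.4 and 21.5 FPKM with Ang II alone and at 16.1, 19.0 and 15.8 in the treated hearts. The groups overlapped, and the difference of -0.064 (standard error 0.16) was 0.16 with median-of-ratios rescaling. Trdn encodes triadin, which anchors calsequestrin to the ryanodine receptor, and its FPKM was 20.8, 20.4 and 22 in the Ang II hearts and 21.9, 22.2 and 20.8 in the treated hearts. Its 6 values spanned the narrowest relative range of the 10 genes, and the difference was 0.036 (standard error 0.10), or 0.26 after rescaling. Jph2 encodes junctophilin 2, which holds the reticulum near the T-tubule, and its FPKM was 99.5, 83.1 and 85.0 in the Ang II hearts and 75.8, 85.4 and 72.9 in the treated hearts. The highest value belonged to an Ang II heart and the 2 lowest to treated hearts, but the ranges overlapped. The difference of -0.19 (standard error 0.12) became 0.044 after rescaling.

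Slc8a1 encodes the sodium-calcium exchanger NCX1, which extrudes calcium across the sarcolemma. Its FPKM was 17.9, 16.2 and 10.0 in the Ang II hearts and 9.02, 11.2 and 8.6 in the Ang II + Tec hearts. The split fell between Ang II replicates 1 and 2 and the other 4 hearts rather than between the groups. The fitted difference was -0.54 (standard error 0.22). It was -0.77 without Ang II replicate 3 and -0.32 after rescaling.

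Ratios within a library show the same split without any scaling. The ratio of Casq2 to Atp2a2 was 0.480, 0.647 and 0.241 in the Ang II hearts and 0.219, 0.193 and 0.190 in the treated hearts. Slc8a1 was at 1.83%, 2.14% and 0.765% of the FPKM of Atp2a2 with Ang II alone and at 0.732%, 0.841% and 0.695% with Ang II + Tec. In both ratios Ang II replicate 3 lay close to the treated hearts, and for Slc8a1 it lay within their range. The fibroblast marker sum divided the 6 hearts in the same way, with 775 and 1029 in Ang II replicates 1 and 2 and 141 to 233 in the other 4, and its part in these ratios was not tested. Atp2a1 and Casq1 did not follow this split, since Ang II replicate 3 had the same low values as the other Ang II hearts. Ryr2 was at 1.83%, 1.91% and 1.64% of the FPKM of Atp2a2 in the Ang II group and at 1.3%, 1.43% and 1.28% in the treated group, without overlap, although neither gene alone separated the groups.

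**Figure D3:**
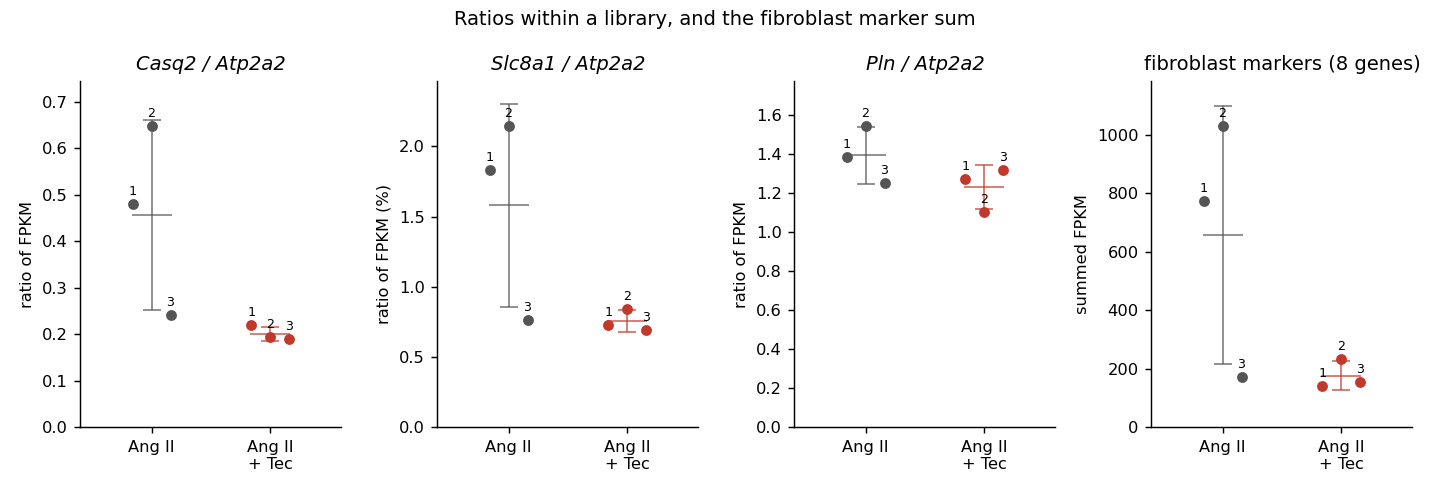
Ratios of FPKM within each library for Casq2, Slc8a1 and Pln over Atp2a2, and on the right the summed FPKM of 8 fibroblast markers, each with the mean and SD of 3 hearts and the replicate number over each point. Ang II replicate 3 lay near the treated hearts in the ratios of Casq2 (0.241) and Slc8a1 (0.765%) and in the fibroblast sum (172), apart from Ang II replicates 1 and 2.

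By mean FPKM the order in the Ang II hearts was Pln, Atp2a2, Casq2, Jph2, Trdn, Ryr2, Slc8a1, Casq1, Atp2a3 and Atp2a1. In the treated hearts Casq1 stood above Slc8a1 and Atp2a1 above Atp2a3, and the other places were as before. Neighbours that overlapped in the Ang II hearts were Pln with Atp2a2, Trdn with Ryr2 and Ryr2 with Slc8a1. In the treated hearts no neighbouring pair overlapped.

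To be called, a gene needed a limma adjusted p-value below 0.05 (Benjamini-Hochberg over all tested genes) together with a log2 difference of 1 or more in size. Calls went to 21 of the 13089 tested genes (0.16%), 11 higher (0.084%) and 10 lower (0.0764%) with Tec. Of the 10 calcium-handling genes, 1 was called, Atp2a1, and since the same comparison chose the genes nothing is read from this count. Casq1 was kept out of the call by the limit on the fold change alone, and was called in 5 of 15 alternative settings. Separate ranges were seen for 3 of the 10 genes, 2 higher with Tec and 1 lower, beside 21.8% of all tested genes, of which 2.9% were higher and 18.9% lower. The median difference of the 10 genes was -0.0074, against -0.17 over all tested genes.

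**Figure D4:**
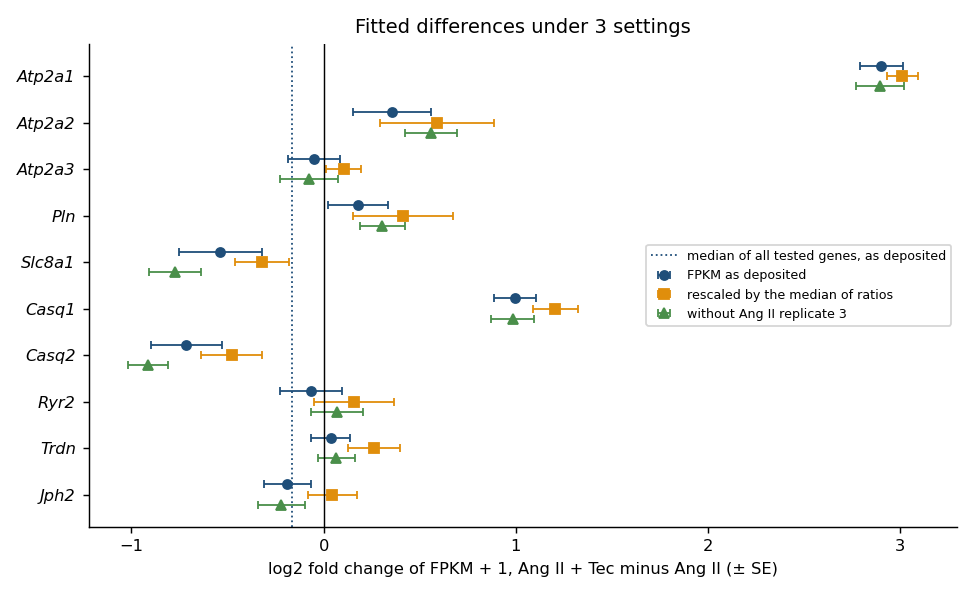
Fitted log2 fold change of FPKM + 1 (Ang II + Tec minus Ang II) with its standard error for each of the 10 genes, from the FPKM as deposited, with median-of-ratios rescaling and without Ang II replicate 3. Atp2a1 (2.90) and Casq1 (0.997) lay far above the median of all tested genes (-0.17, dotted line). As deposited, Casq2, Slc8a1 and, narrowly, Jph2 (-0.19) lay below that median. Jph2, Ryr2 and Atp2a3 changed sign with the rescaling.

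Because Atp2a1 and Casq1 are skeletal-muscle isoforms, 19 markers of fast skeletal muscle were examined, of which 17 were in the table and 7 were tested. The fast and perinatal myosin heavy chain genes Myh1, Myh2 and Myh8 were at 0 to 0.02 FPKM in each library, and Actn3 reached 0.19 at most. Myh4, another fast heavy chain gene of the list, was among those without values. One marker was called, Mylpf, which encodes the fast regulatory myosin light chain. Mylpf was at 0.58, 0.56 and 0.22 FPKM with Ang II alone and at 4.14, 3.44 and 4.55 in the treated hearts, with a fitted difference of 1.80 (standard error 0.15; adjusted p-value 0.0142 by limma). Its groups did not overlap, as for Atp2a1, and its level in the treated hearts was below that of Atp2a1.

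Mybpc2, the fast form of myosin-binding protein C, had 2.95, 2.86 and 2.48 FPKM in the Ang II hearts and 6.7, 6.51 and 3.8 in the treated hearts, a difference of 0.80 (standard error 0.20) that was not past the threshold (limma adjusted p-value 0.201). The groups did not overlap for this gene either. Myod1, a myogenic bHLH factor, was listed at 0 in each Ang II heart and at 0.03, 0.05 and 0.03 FPKM in the treated hearts, below the filter and near the 2 decimals of the table. Tnni2, Pvalb and Cacna1s overlapped between the groups. Myl1 and Tnnt3 were highest in Ang II replicates 1 and 2, at 70.1 and 169 FPKM for Myl1, against 7.12 to 39.0 in the treated hearts, so not all markers of the list moved with Atp2a1. Summed over the 17 genes, FPKM was 83.1, 225 and 19.2 in the Ang II hearts and 24.8, 57.8 and 24.6 in the treated hearts. Myl1 made up most of each Ang II sum, at 70.1, 169 and 14.1 FPKM, against 7.12, 39.0 and 7.47 in the treated hearts. Tnnt3 added 6.91, 42.4 and 0.3 against 1.41, 1.04 and 1.31. The sum therefore mainly follows these genes and does not show how the other markers moved. The part of skeletal muscle tissue in the Atp2a1 values was not tested beyond these levels.

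Ryr1, the skeletal ryanodine receptor and the usual partner of Casq1 in the triad, was below the filter. It was listed at 0.01 FPKM in each Ang II heart and at 0.04, 0.05 and 0.05 in the treated hearts, an estimated 5 fragments against 19 to 32 on its long transcript. The groups did not overlap, at levels near the 2 decimals of the table. Jsrp1, another protein of the skeletal junction, was at 0.73 to 0.93 FPKM in the Ang II hearts and at 0.56 to 0.87 in the treated hearts, with overlap.

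**Figure D5:**
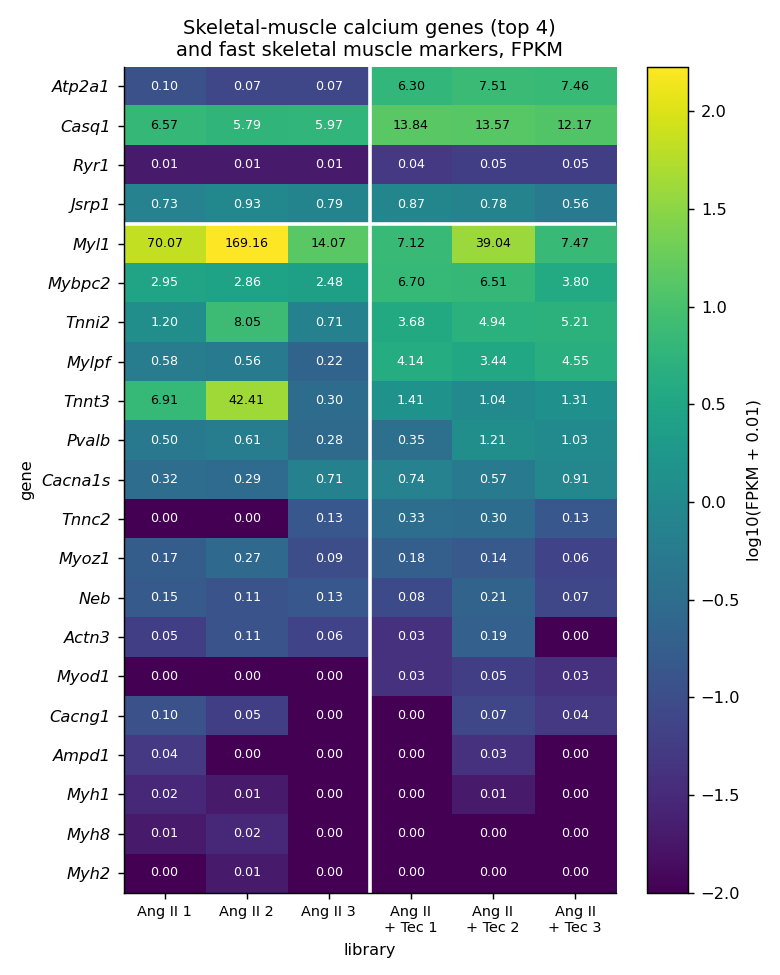
FPKM of 4 skeletal-muscle calcium genes (top) and of 17 fast skeletal muscle markers in each library, coloured by log10(FPKM + 0.01) with the FPKM printed in each cell. Atp2a1, Casq1, Ryr1, Mylpf, Mybpc2 and Myod1 were higher in all 3 treated hearts than in any Ang II heart. Myl1 and Tnnt3 were highest in Ang II replicates 1 and 2, and Myh1, Myh2 and Myh8 were at 0 to 0.02.

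The genes next to Atp2a1 did not move with it. Rabep2, whose end overlaps that of Atp2a1 by 44 bases on the opposite strand, had an FPKM of 1.21 to 1.51 in the Ang II hearts and of 1.17 to 1.55 in the treated hearts. Sh2b1, a minus-strand gene whose nearer end lies 3885 bases beyond the other end of Atp2a1, had 10.7 to 11.9 and 8.51 to 11.6. Within Casq1 lies the antisense gene Gm17224, which reached 0.24 FPKM at most. The strandedness of the libraries is not given in the sources used here, so reads from overlapping opposite strands may not be told apart.

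Among 11506 genes averaging 1 FPKM or more in either group, the 5 whose values over the 6 libraries were most like those of Atp2a1 (Pearson's r on log2(FPKM + 1)) included Casq1, with r = 0.986. Others were an Nnt gene model (0.990), Iscu (0.988), which encodes a scaffold protein of iron-sulfur cluster assembly, and the mitochondrial tRNA gene mt-Tg (0.987). Since Atp2a1 itself separated the groups, a high r mainly restates a group difference, and nothing further is read from it. The genes named here did not overlap between the groups, but the sizes of their differences varied. Iscu had 39.0 to 39.5 FPKM in the Ang II hearts and 44.3 to 45.7 in the treated hearts. The Nnt model was listed at 0 in the Ang II hearts and at 32.0 to 81.9 in the treated hearts. It thus entered the comparison through the treated hearts alone. The genotype of the mice at this gene, and the strain stated for both groups, were not tested.

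Calcium handling was also examined in 77 further genes. Of the 66 that could be tested, 0 were called with limma, in either direction, and 17 had an unadjusted p-value under 0.05, beside 18.6% of all tested genes. The groups did not overlap in 3 genes that were higher and 18 that were lower with Tec (31.8% of the 66), beside 21.8% of all tested genes, 2.9% higher and 18.9% lower. The median difference was -0.18, close to that of all genes, and -0.0054 with median-of-ratios rescaling. As deposited, 52 of the 66 differences were below 0, and 34 were after rescaling.

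Among 15 further genes of calcium release, 13 were tested and 4 had an unadjusted p-value under 0.05 (limma), beside 18.6% of all tested genes. Fkbp1a, which encodes the FKBP12 protein that binds ryanodine receptors, had 50.2, 55.9 and 35.8 FPKM in the Ang II hearts and 30.2, 32.2 and 31.0 in the treated hearts, a difference of -0.57 (standard error 0.17, limma adjusted p-value 0.221). Srl, which encodes sarcalumenin, a luminal calcium-binding protein, differed by -0.41 (standard error 0.13). S100a1, a regulator of both the pump and the release channel and the most abundant of the list, had 340 to 400 and 298 to 396 FPKM. Rescaled by the median of ratios, the differences were -0.34 for Fkbp1a, -0.18 for Srl and 0.093 for S100a1.

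In the list of 10 junction and T-tubule genes, 8 were tested, and 5 did not overlap between the groups, beside 21.8% of all tested genes. Cav3, which encodes the caveolin of muscle, had the lowest p-value of all 66 genes and was not past the threshold. Its FPKM was 77.4, 76.2 and 61.2 in the Ang II hearts and 49.6, 40.1 and 43.1 in the treated hearts, a difference of -0.68 (standard error 0.14, adjusted p-value 0.180 by limma). Lrrc10, a heart-specific leucine-rich repeat protein, had 98.8, 76.8 and 89.7 FPKM and 115, 120 and 129, a difference of 0.46 (standard error 0.13, limma adjusted p-value 0.210). Tmem38a, a potassium channel of the reticulum, and Popdc2 differed by -0.25 (standard error 0.11) and -0.28 (standard error 0.15). Rescaling moved Cav3 to -0.45, Lrrc10 to 0.70, Tmem38a to -0.018 and Popdc2 to -0.049.

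Of 7 further genes that bear on SERCA, 6 were tested. Hax1, which encodes a partner of phospholamban, had 14.1, 16.2 and 11.9 FPKM in the Ang II hearts and 8, 9.73 and 9.46 in the treated hearts, a difference of -0.57 (standard error 0.14, limma adjusted p-value 0.201). Tmx1 differed by -0.54 (standard error 0.17). After rescaling the differences were -0.36 for Hax1 and -0.31 for Tmx1. For Sln, which encodes sarcolipin, the SERCA inhibitor of the atrium, Ang II hearts had 67.1, 135 and 0.05 FPKM and treated hearts 0, 255 and 0.02. The same 3 hearts had the atrial light chain Myl7, at 419, 332 and 1040 FPKM, while the others had 0 to 1.58, so the level of Sln ran with atrial transcripts and not with the groups. Atp2a1 did not, as its values in Ang II + Tec replicates 2 and 3 were 7.51 and 7.46.

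Kinases, anchors, phosphatases and calmodulins numbered 19 and were all tested. An unadjusted p-value under 0.05 (limma) was found for 2 of them, Calm3 and Calm2, beside 18.6% of all tested genes. Both encode calmodulin, which binds the L-type channel and the ryanodine receptor, and differed by -0.54 (standard error 0.17, limma adjusted p-value 0.221) and -0.62 (standard error 0.25, adjusted p-value 0.256 by limma). The protein kinase A subunit gene Prkar1a differed by -0.52 (standard error 0.28), and the phosphatase gene Ppp1ca by -0.16 (standard error 0.12). These became -0.31 for Calm3, -0.39 for Calm2, -0.29 for Prkar1a and 0.072 for Ppp1ca once rescaled.

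Calcium entry and extrusion at the sarcolemma comprised 18 genes, of which 12 were tested and 0 had an unadjusted p-value under 0.05 or were called (limma). Cacna1c, which encodes the pore of the cardiac L-type channel, had 6.73, 5.63 and 7.34 FPKM in the Ang II hearts and 5.09, 5.83 and 5.33 in the treated hearts, a difference of -0.23 (standard error 0.13). The plasma membrane pump gene Atp2b1 also differed by -0.23 (standard error 0.13). Saraf and Cacna2d1, the most abundant of the list, differed by 0.075 (standard error 0.098) and -0.15 (standard error 0.11). With rescaling, Cacna1c was at -0.034, Atp2b1 at -0.062, Saraf at 0.31 and Cacna2d1 at 0.063.

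All 8 genes of mitochondrial calcium uptake were tested, and their differences were below 0 in 8 as deposited, beside 80.0% of all tested genes, and in 5 after rescaling. Of the 8, 4 had an unadjusted p-value under 0.05, beside 18.6% of all tested genes, with 0 called (limma). Mcub, which encodes the dominant-negative subunit of the uniporter, had 2.25, 2.95 and 1.14 FPKM in the Ang II hearts and 0.67, 0.98 and 0.85 in the treated hearts, a difference of -0.72 (standard error 0.22, adjusted p-value 0.221 by limma). The pore gene Mcu differed by -0.34 (standard error 0.12), Smdt1 by -0.28 (standard error 0.10) and Micu2 by -0.24 (standard error 0.14). Rescaled, the differences were -0.58 for Mcub, -0.18 for Mcu, -0.047 for Smdt1 and -0.0072 for Micu2.

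The table's own pathway annotation places 6 of the 10 genes in the KEGG calcium signaling pathway. Of its 103 tested genes, 1 was called, Atp2a1, beside 0.16% of all tested genes, and the median difference was -0.14, beside -0.17. The 1 call is a gene chosen with this comparison known, and nothing is read from it. The KEGG pathways for cardiac muscle contraction and for adrenergic signaling in cardiomyocytes, with 60 and 111 tested genes, held 0 called genes (limma).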

How the data were processed

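Reads were trimmed (Cutadapt) and inspected (FastQC) by the authors, whose deposited table gives FPKM per gene and library to 2 decimals. The submitters' processing notes name HISAT2 2.0, StringTie 1.3.0 and Bowtie 0.12.2, with the build mm8, but 9 of the 10 genes have exactly the coordinates of GENCODE release M21 on GRCm38, which was used here. The labels name a NovaSeq instrument and the study's methods a HiSeq. The FPKM were used as deposited, without a count model. Estimated depth, from the spacing of the lowest FPKM of genes with 1 transcript of 300 to 2000 bases, was 30.4 to 41.2 (in units of 1e+06 fragments) per library.

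Values of log2(FPKM + 1) of genes with at least 0.5 FPKM in at least 3 libraries were fitted with limma 3.58.1 in R 4.3.3 (eBayes with a trend, Benjamini-Hochberg over 13089 genes), without covariates. In simulated data, 187 of 200 genes changed by a log2 fold change of 2 were recovered, with 6 false calls among 12838 genes. The simulated noise was independent, with spreads shuffled over genes and without the differences between libraries of a group seen here. These rates may therefore not hold for the real data. An exact two-sided permutation test at this group size cannot go below 0.1, so none was used.

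Genes named are the 10 genes, for each further list the called genes or else the 2 with the lowest p-value and the 2 with the highest mean FPKM, fast skeletal muscle markers over 0.5 FPKM in any library, the 5 genes most like Atp2a1 (1 of them is not reported here) and its neighbours. The genes and lists were chosen with earlier results of these data known. Ryr1, Jsrp1, Casq1's neighbour, the myosin heavy chains, Actn3, Myod1, Myl7, the KEGG pathways and the ratios to Atp2a2 other than that of Pln were chosen after their values were seen. Markers of slow skeletal muscle, endothelium, smooth muscle, leukocytes, platelets, adipocytes and red blood cells (0 called in each) were also summed. The leukocyte sum was 62.3 to 115 FPKM in the Ang II hearts and 39.4 to 45.0 in the treated hearts. For platelets it was 10.15 to 16.31 and 7.87 to 9.59, and the other sums overlapped between the groups. The adipocyte sum was 95.8 in Ang II + Tec replicate 2, against 0.23 and 2.62 in replicates 1 and 3. Alternatives changed the pseudocount, filter, scaling, block and weights, and left out each library.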

Additional observations from a re-analysis of the deposited data

How the results depend on the processing

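Atp2a1 was called in the main fit and in each of 15 alternatives, with a log2 fold change of 2.86 to 6.31, the highest with a pseudocount of 0.01. The same libraries chose Atp2a1, which passed the filter through the treated hearts alone, so nothing is read from these repeated calls. Of the 10 genes, 2 were called, Atp2a1 and Casq1, with a pseudocount of 0.1 or 0.01, after rescaling by the median of ratios or to the sum outside the mitochondrial genome, and after quantile normalization, and 1 in the other 10 alternatives. The sign was kept in all 15 by Atp2a1, Atp2a2, Casq1, Casq2, Trdn and Slc8a1, in 14 by Pln, in 13 by Jph2, in 12 by Atp2a3 and in 11 by Ryr2. The 21 genes called of all tested became 3 without the filter on low FPKM and 522 with array weights, an estimate that did not fully converge. Leaving out 1 library gave 2 to 557 genes (557 without Ang II replicate 3, and 2 to 7 without any other). Of the further calcium genes, 1 (Calu) was called with array weights, and leaving out 1 library gave 0 to 2 (Calu and Strit1, without Ang II replicate 3). With the replicate number as a block, 22 genes were called, Atp2a1 among them, and the block changed no call among the 10 genes, the 66 further ones and the tested marker genes, nor that of the Nnt model or mt-Tg. Deviations of same-numbered libraries correlated at -0.039, 0.43 and 0.38, and those of differently numbered ones at -0.44 to 0.23. These values do not settle whether the numbers mark pairs, and the main fit took none. Without 1 library of a group, the mean Atp2a1 share was 0.00729% to 0.00972% in the Ang II group and 0.534% to 0.58% in the Ang II + Tec group, the mean Casq1 share 1.28% to 1.62% and 4.89% to 4.96%, and the mean ratio of Pln to Atp2a2 1.32 to 1.46 and 1.19 to 1.29. Depth limits the values under about 0.1 FPKM, those of Atp2a1 in the Ang II hearts, of Ryr1 and of the myosin heavy chains.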
